A study of Mus musculus with 6 samples.

Results

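Forkhead transcription factors are the genes whose symbols run from Foxa1 to Foxs1, and 44 of the 24346 gene symbols in the files belong to them by name alone, in 19 subfamilies named by letter. Their levels are described in 6 RNA-seq libraries of mouse basilar cartilage, taken at the spheno-occipital synchondrosis, a growth cartilage of the cranial base that lies between bones and lengthens the skull base. The study set flat against round chondrocytes, each layer cut out of frozen sections with a laser. The libraries carry the codes FP (11, 14 and 16) and RR (11, 14 and 16) in their titles, and no label says which code is which cell shape, so the codes are kept. All mice of both groups had the same genotype, Gli1CreERT2; Tomato flox, in which the Gli1 gene drives a Cre that tamoxifen switches on, and all had tamoxifen at P3, postnatal day 3. There is thus no mouse without Cre or without tamoxifen among the libraries, and the labels do not state the age at collection, the number of mice behind a library or any use of the Tomato colour to choose cells.

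Forkhead proteins share a winged helix domain that binds DNA at sites built around a TGTTT core, and the subfamilies differ in what they do elsewhere in the protein. Foxa proteins are pioneer factors that open chromatin in liver, gut and lung, and in mouse cartilage Foxa2 and Foxa3 are required for the hypertrophic programme. Foxc proteins act in mesenchyme that builds the skull, eye and vessels, Foxo proteins are held out of the nucleus when insulin or IGF signalling activates AKT, and Foxp proteins are repressors that work with Runx2 in mouse endochondral bone. Foxm1 drives genes of mitosis.

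Foxa2 and Foxa3 are the members with the largest difference between FP and RR in the values that follow, so the 250 bases before their RefSeq starts are shown (GRCm38.p6, both on the minus strand, 5′ to 3′). The Foxa2 stretch is chr2:148046970-148047219, before the outermost of 3 starts listed for the gene. The Foxa3 stretch is chr7:19023540-19023789, before its 1 listed start. Capitals mark a forkhead core (TGTTTAC and the spellings TGTTTGC and TGTTTAT and TGTTTGT, searched on both strands) in Foxa2 and a TATA box (TATAAA, searched on the gene's strand) in Foxa3.
Foxa2: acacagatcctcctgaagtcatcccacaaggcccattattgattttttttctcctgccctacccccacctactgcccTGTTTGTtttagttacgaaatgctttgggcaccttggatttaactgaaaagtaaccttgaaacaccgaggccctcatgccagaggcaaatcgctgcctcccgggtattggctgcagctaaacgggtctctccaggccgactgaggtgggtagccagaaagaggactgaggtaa
Foxa3: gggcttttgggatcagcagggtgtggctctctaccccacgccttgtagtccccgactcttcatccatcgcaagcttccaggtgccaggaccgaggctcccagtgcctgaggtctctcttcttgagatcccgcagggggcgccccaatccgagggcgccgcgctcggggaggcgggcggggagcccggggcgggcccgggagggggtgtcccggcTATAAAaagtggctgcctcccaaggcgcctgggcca
The forkhead core of Foxa2 begins 173 bases before the start, and the TATA box of Foxa3 36 bases before it. A forkhead core in 1 of these 4 spellings was found in 15.7% of all 32851 windows of this length and in 7 of the 33 windows that matched 28 forkhead genes by symbol. A TATAAA was found in 7.59% of all windows and in 2 of the 33, those of Foxa3 and Foxp3. These are matches of letters, and no binding was measured.

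Values are FPKM as the authors deposited them, a unit per length of transcript, so levels can be compared between genes. FPKM times transcript length fell on steps of 1 fragment, and by these steps 1 fragment, on a transcript of 2000 bp, equalled 0.127 to 0.296 FPKM in a library, a 2.32-fold spread in depth where no later rescaling was applied. RR 14 was the shallowest library and correlated least with the others across 14789 genes (Pearson's r of 0.766 to 0.817, against 0.796 to 0.873 among the rest). Genes of all chondrocytes (8 of 10 listed, led by Col2a1) summed to 51107 to 87636 FPKM in FP and 43936 to 91963 FPKM in RR, so both groups carried the labelled tissue. The 11 markers of hypertrophic chondrocytes summed to 1186 to 1488 FPKM in FP and 200.2 to 451 FPKM in RR, and the 9 markers of resting chondrocytes to 525 to 789 FPKM in FP and 3246 to 4503 FPKM in RR. The 8 markers of columnar chondrocytes summed to 6601 to 7757 FPKM in FP and 2346 to 4226 FPKM in RR. Of these lists, 7 of the 11 hypertrophic and 4 of the 8 columnar markers passed the test as higher in FP, and 6 of the 9 resting markers as lower. Of all tested genes, 0.554% passed as higher and 0.412% as lower. Rpph1, a non-coding RNA, held 23.6% to 41.0% of all FPKM per library. None of the markers listed was at 0 in all 6 libraries. In cut tissue, fewer cells of a type and less RNA per cell cannot be told apart.

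Of the 44 members, 30 averaged 1 FPKM or more across the libraries and entered the test, which was limma on log2(FPKM + 1), FP minus RR, fitted to all 14789 genes that passed this filter and adjusted over all of them. The cartilage thus listed most of the family, at modest levels. Foxo3 stood highest with a mean of 20.4 FPKM, followed by Foxp4 (17.7), Foxc1 (17.3), Foxn3 (14.5), Foxc2 (14.1), Foxo4 (13.4), Foxf2 (12.2) and Foxd1 (10.7). These neighbours in the order do not stand apart: Foxo3 alone ran from 10.5 to 28.8 FPKM across libraries and Foxp4 from 10.5 to 29.9. A further 10 members (Foxm1, Foxk1, Foxj3, Foxa2, Foxk2, Foxo1, Foxp1, Foxj2, Foxf1 and Foxa3) had means of 5.44 to 9.45 FPKM. The other 12 tested members had means of 1.02 (Foxe1, just inside the filter) to 4.16 FPKM (Foxp2), and Foxa1 lay just outside it at 0.948 FPKM.

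Summed over all 44 members, the family stood at 176, 245 and 245 FPKM in FP libraries 11, 14 and 16, against 176, 240.0 and 276 FPKM in RR libraries 11, 14 and 16. The groups overlap in these sums, and in each group library 11 was the lowest. All genes together summed to 680240, 1126100 and 947210 FPKM in FP and 547370, 762230 and 886540 FPKM in RR, libraries in the same order. As a share of that total, the family was lower in every FP library than in every RR library, and highest in RR 11. The totals include Rpph1, and the difference in share was not tested. The Foxo members made up 15.9% to 23.3% of the family sum in a library, the Foxc members 9.31% to 18.9%, the Foxp members 9.29% to 16.9% and the Foxa members 2.03% to 10.7%.

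**Figure D1:**
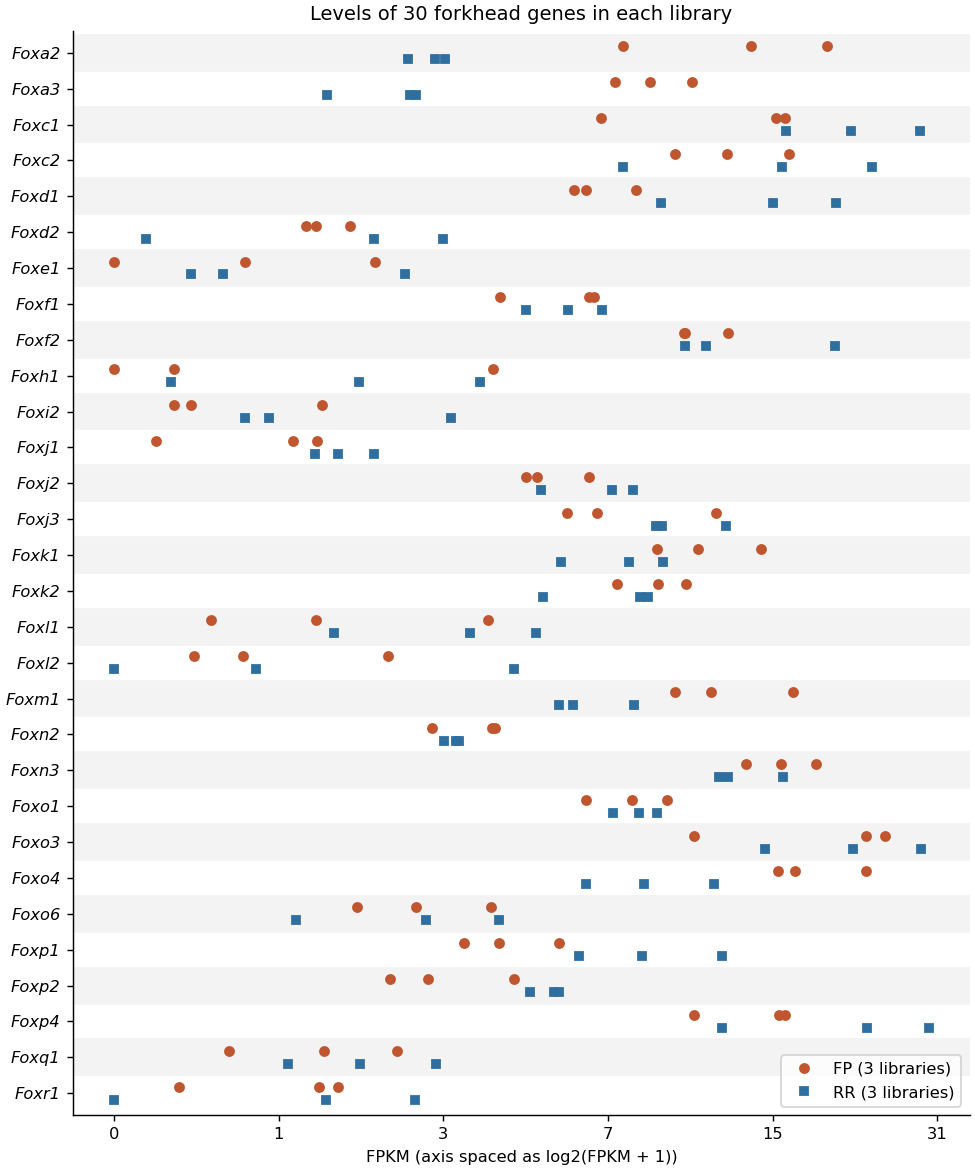
Level of each of the 30 tested forkhead genes, with 1 row per gene in the order of the subfamilies and FPKM on the horizontal axis, spaced as log2(FPKM + 1). Circles are the 3 FP libraries and squares, just under them, the 3 RR libraries. Foxa2, Foxa3, Foxo4 and Foxm1 have every circle to the right of every square, and Foxc1, Foxd1, Foxp1 and Foxp2 every circle to the left.

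Of the 30 tested members, 1 passed the threshold of an adjusted p under 0.05: Foxa3, higher in FP. Among all 14789 genes tested, 0.967% passed (0.554% were higher and 0.412% lower in FP). The libraries of FP and RR did not overlap for 8 of the 30 members, 4 with FP above (Foxa2, Foxa3, Foxo4 and Foxm1) and 4 with FP below (Foxc1, Foxd1, Foxp1 and Foxp2). That is 26.7% of the members, where 16% of all tested genes had such groups (8.74% with FP above and 7.28% with FP below). An unadjusted p under 0.05 was reached by 6 members, 4 higher and 2 lower in FP, or 20.0% against 10.3% of all tested genes.

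By estimate, 10 members were higher and 20 lower in FP. The median log2 change of the members was -0.17, beside 0.02 for all tested genes, of which 51.6% were higher in FP. Without FP 11 the median of the members was 0.02, on the other side of 0 and beside -0.01 for all genes. Without both libraries numbered 11 it was -0.15, beside -0.0035 for all genes, and without RR 11 alone it was -0.43, beside 0.02. The sizes of change were ordinary: the median of the absolute log2 change was 0.30 among the members and 0.31 among all genes.

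**Figure D2:**
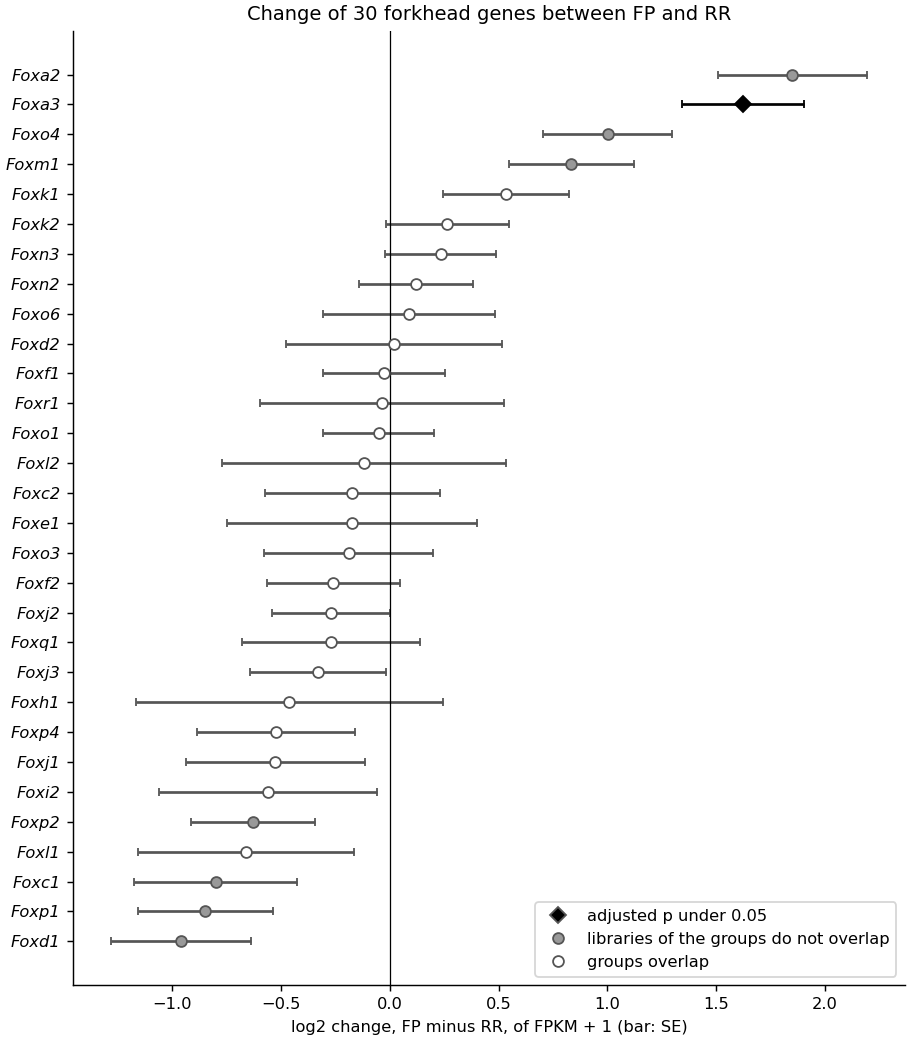
Log2 change, FP minus RR, of FPKM + 1 for the 30 tested forkhead genes, from highest to lowest, with bars of 1 standard error. The black diamond is Foxa3, past the threshold at 1.62; filled circles are genes whose FP and RR libraries did not overlap, and open circles genes whose libraries did.

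The Foxa subfamily held the largest differences. Foxa2 was at 7.53, 19.1 and 13.6 FPKM in FP libraries 11, 14 and 16, against 2.44, 2.86 and 3.03 FPKM in RR libraries 11, 14 and 16. Every FP library was above every RR library, the RR values lay close together and the FP values were spread out. The means were 13.4 ± 5.80 FPKM in FP and 2.78 ± 0.304 FPKM in RR (SD, n = 3 each), a 4.84-fold ratio, with a log2 change of 1.85 ± 0.34 (SE) and a limma adjusted p of 0.0511, just short of the threshold.

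Foxa3 was at 8.53, 7.23 and 10.4 FPKM in FP and 2.48, 1.45 and 2.57 FPKM in RR, libraries in the same order. Again all FP libraries were above all RR libraries, this time with little spread in FP. The means were 8.72 ± 1.59 FPKM in FP and 2.17 ± 0.621 FPKM in RR (SD, n = 3 each), a 4.02-fold ratio, and the log2 change of 1.62 ± 0.28 (SE) passed with a limma adjusted p of 0.0380. Leaving out any 1 library ended its call (adjusted p of 0.0834 to 0.198), while the log2 change then ran from 1.45 to 1.74. Foxa2 passed in the fit without FP 11 (adjusted p = 0.0287) and in 5 other alternatives, with log2 changes of 1.57 to 2.19 over all alternatives.

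The values rest on few fragments in RR. Foxa3 corresponded to about 68.2, 29.2 and 56.9 fragments in FP 11, 14 and 16 and to about 13.0, 5.0 and 14.97 in RR 11, 14 and 16, by its 2037 bp transcript. Foxa2 corresponded to about 62.8, 80.8 and 77.9 fragments in FP and 13.4, 10.3 and 18.5 in RR. Foxa1, the third member, was under the filter, at 0.463, 0 and 1.91 FPKM in FP and 1.53, 1.79 and 0 FPKM in RR. It was listed at 0 in 1 library of each group and shows no order between them. The subfamily sum was 16.5, 26.3 and 25.9 FPKM in FP and 6.45, 6.10 and 5.60 FPKM in RR.

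Within a library, the balance of Foxa2 to Foxa3 varied more between libraries than between groups. The ratio of their FPKM was 0.882, 2.64 and 1.31 in FP libraries 11, 14 and 16 and 0.983, 1.97 and 1.18 in RR libraries 11, 14 and 16, highest in library 14 of both groups. On mm10, Foxa2 (ENSMUSG00000037025.11) lies on chromosome 2 (148042877 to 148046969) and Foxa3 (ENSMUSG00000040891.6) on chromosome 7 (19013284 to 19023538), both on the minus strand and with no exon of another annotated gene overlapping theirs.

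**Figure D3:**
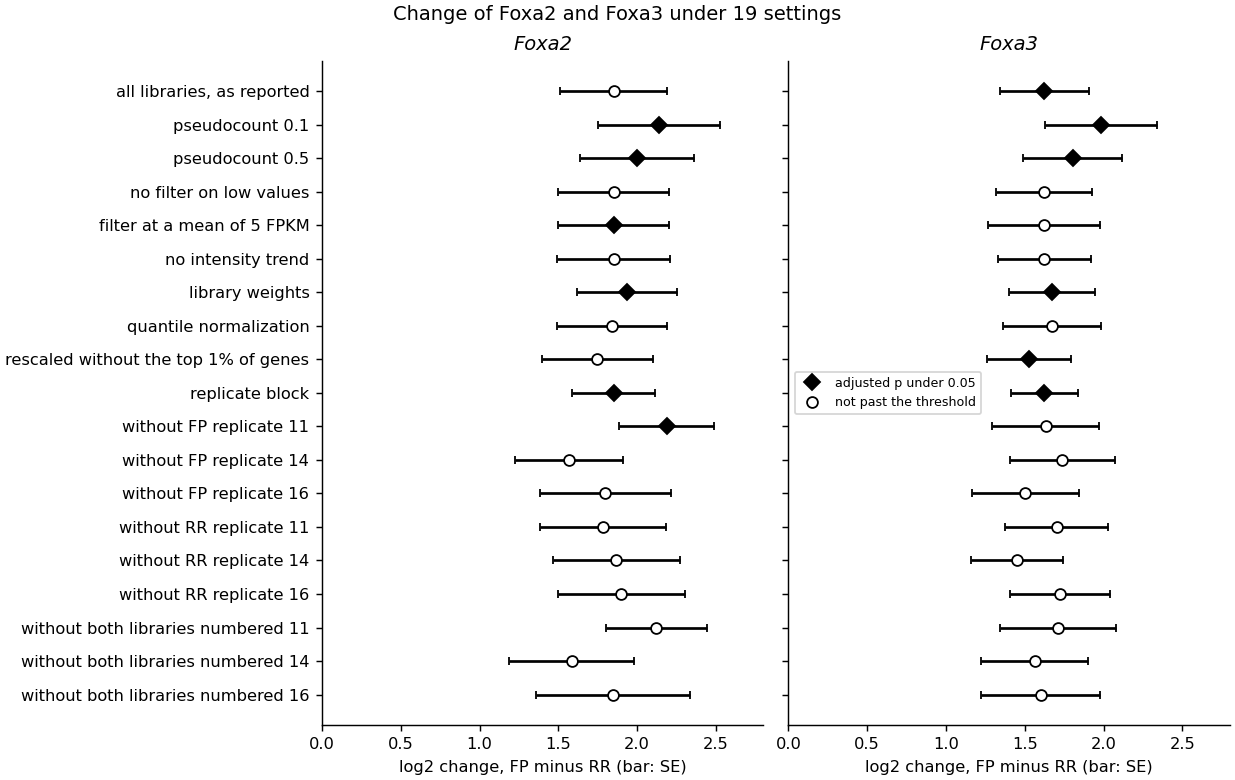
Log2 change of Foxa2 (left) and Foxa3 (right), FP minus RR, in the reported fit and in 18 alternatives, with bars of 1 standard error. Filled diamonds are fits with an adjusted p under 0.05. The estimates of both genes lie between 1.45 and 2.19 on the log2 scale, while the calls come and go.

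Genes that act with Foxa2 and Foxa3 or belong to the hypertrophic programme were called in FP in 1 direction. Of 17 listed partners and hypertrophic genes, all tested, 6 were higher in FP and 0 lower, where 0.554% and 0.412% of all tested genes were. Their median log2 change was 1.28, beside 0.02 for all tested genes. The 6 were Col10a1, the collagen of hypertrophic cartilage, Ihh, the Indian hedgehog ligand, Sp7, the osterix factor, Alpl, the alkaline phosphatase of mineralization, Panx3, a channel protein, and Pth1r, the receptor for parathyroid hormone-related protein. Col10a1 was at 353, 381 and 298 FPKM in FP and 2.99, 4.19 and 13.98 FPKM in RR (log2 change 5.66 ± 0.47, limma adjusted p = 0.00202). Sp7 was at 29.3, 40.7 and 36.9 FPKM in FP and 5.56, 3.08 and 4.23 FPKM in RR (2.81 ± 0.28, adjusted p = 0.00418). This list was drawn up with earlier results of these data known, so its count is no independent sign of direction. The part of hypertrophic or columnar cells in the Foxa2 and Foxa3 values was not tested.

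Among the transcription factors of that list, Runx2, Runx3, Mef2c and Sox9 had FP libraries above all RR libraries without passing. Such groups, with FP above, were found in 8.74% of all tested genes. The groups of Mef2d, Sox5 and Sox6 overlap (log2 changes of 0.39 ± 0.28, 0.07 ± 0.26 and 0.15 ± 0.29, limma adjusted p = 0.720, 0.967 and 0.928). Mef2c, which drives hypertrophy, was at 35.4, 16.1 and 16.5 FPKM in FP and 8.79, 3.79 and 2.29 FPKM in RR (log2 change 2.04 ± 0.46, adjusted p = 0.112). Nkx3-2, a repressor of hypertrophy, was at 11.6, 32.6 and 24.7 FPKM in FP and 7.38, 21.2 and 17.6 FPKM in RR, with groups that overlap (0.55 ± 0.47, adjusted p = 0.779). Mmp13, the collagenase of terminal cartilage, was not called, with 19.2, 3.33 and 2.57 FPKM in FP and 27.4, 3.67 and 1.91 FPKM in RR (-0.10 ± 0.90, adjusted p = 0.989). It was highest in library 11 of both groups. Pth1r missed the threshold when any of 5 libraries was dropped (adjusted p up to 0.175), as did Panx3 when FP 16 or RR 14 was (up to 0.0729).

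The Foxo subfamily had the largest sum in every library except RR 14, where the Foxp sum was larger, and none of its members passed the test. The Foxo sum was 33.9, 53.1 and 57.1 FPKM in FP and 31.6, 38.1 and 53.2 FPKM in RR, with groups that overlap. Foxo4, on the X chromosome, was at 15.3, 16.6 and 22.6 FPKM in FP libraries 11, 14 and 16, against 6.28, 8.29 and 11.5 FPKM in RR. All FP libraries were above all RR libraries. The means were 18.2 ± 3.91 FPKM in FP and 8.69 ± 2.63 FPKM in RR (SD, n = 3 each), a 2.09-fold ratio, with a log2 change of 1.0 ± 0.30 (SE) that did not pass (limma adjusted p = 0.243, and 0.067 to 0.758 over the alternatives). It corresponded to about 190.3, 104 and 192 fragments in FP and 51.0, 44.3 and 104 in RR.

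The other Foxo members gave no such order. Foxo3 was at 10.5, 24.7 and 22.7 FPKM in FP and 14.5, 21.4 and 28.8 FPKM in RR (log2 change -0.19 ± 0.39, adjusted p = 0.936). Foxo1, which mediates insulin responses in liver, was at 6.29, 9.25 and 7.83 FPKM in FP and 8.13, 7.18 and 8.83 FPKM in RR (-0.05 ± 0.26, adjusted p = 0.977). Foxo6 was low, at 1.78, 2.56 and 3.89 FPKM in FP and 2.71, 1.15 and 4.06 FPKM in RR (0.09 ± 0.40, adjusted p = 0.974). For all 3 the groups overlap.

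Set against its own subfamily, which removes any scaling between libraries, Foxo4 made up 45.3%, 31.2% and 39.7% of the Foxo sum in FP libraries 11, 14 and 16 and 19.9%, 21.8% and 21.6% in RR. The ratio of Foxo4 to Foxo3 was 1.47, 0.670 and 0.998 in FP and 0.433, 0.387 and 0.399 in RR. Both measures separate the groups, with RR nearly constant and FP spread out. They were chosen after the values were seen and are given as a description, since an exact permutation test of 3 libraries against 3 cannot go below a two-sided p of 0.1.

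Of 25 regulators of Foxo proteins (the insulin and IGF receptors, their adaptors, PI3K, AKT, SGK and partners), 24 were tested and 0 passed, with a median log2 change of 0.17. An unadjusted p under 0.05 was reached by 3 of the 24, beside 10.3% of all tested genes. Sgk1, a kinase that phosphorylates Foxo proteins, came closest, at 6.59, 3.82 and 2.38 FPKM in FP and 15.1, 10.7 and 14.6 FPKM in RR (log2 change -1.52 ± 0.34, limma adjusted p = 0.110), with no overlap. Skp2, a ubiquitin ligase subunit that targets Foxo1, was at 6.24, 4.83 and 5.48 FPKM in FP and 3.17, 2.36 and 2.62 FPKM in RR (0.81 ± 0.26, adjusted p = 0.280).

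Of 22 genes known as Foxo targets in other tissues, 21 were tested and 0 passed, with a median log2 change of -0.18. The estimates lay on both sides of 0, 6 higher and 15 lower in FP, where 51.6% and 48.4% of all tested genes were. An unadjusted p under 0.05 was reached by 5 of the 21, beside 10.3% of all tested genes. Klf2, a Krüppel-like factor, was at 13.6, 23.3 and 12.7 FPKM in FP and 2.17, 5.62 and 6.83 FPKM in RR (log2 change 1.63 ± 0.40, limma adjusted p = 0.150). Txnip, the thioredoxin-interacting protein, stood at 14.3, 27.8 and 19.3 FPKM in FP and 32.8, 41.9 and 44.2 FPKM in RR (-0.96 ± 0.30, adjusted p = 0.284).

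**Figure D4:**
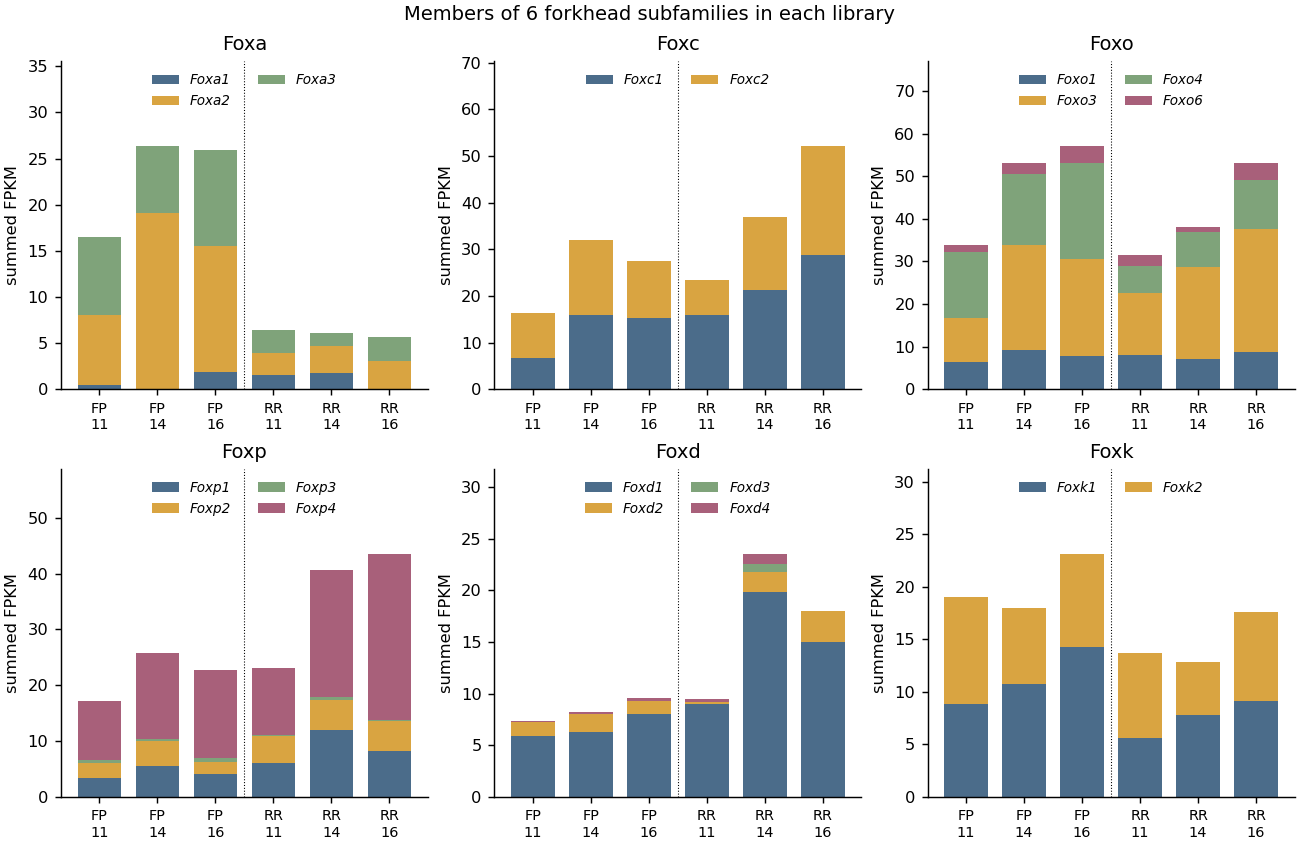
Summed FPKM of 6 forkhead subfamilies in each library, as stacked bars from 0 with 1 colour per member and the FP libraries left of the dotted line. The Foxa bars reach 16.5 to 26.3 FPKM in FP and 5.60 to 6.45 FPKM in RR, while the Foxo bars reach similar heights in both groups with a larger Foxo4 part in FP.

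No Foxp member passed the test, and Foxp1 and Foxp2 had every FP library below every RR library. The Foxp sum was 17.1, 25.8 and 22.8 FPKM in FP and 23.0, 40.6 and 43.6 FPKM in RR, with overlap between FP 14 and RR 11. Foxp1, a repressor known from lung, heart and B cell development, was at 3.37, 5.52 and 4.06 FPKM in FP libraries 11, 14 and 16, against 6.07, 11.9 and 8.22 FPKM in RR. Each FP library was below each RR library, with RR 14 the highest. The means were 4.32 ± 1.099 FPKM in FP and 8.73 ± 2.95 FPKM in RR (SD, n = 3 each), a log2 change of -0.85 ± 0.31 (SE, limma adjusted p = 0.377). In the 6 fits without 1 library its log2 change was between -1.06 and -0.62. Exons of Foxp1 overlap those of Gm20696 (130 bp) and the miRNA gene Gm49348 (135 bp) on the same strand, so its value is uncertain by those stretches.

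Foxp2, known from brain circuits for vocal learning, was at 2.74, 4.38 and 2.197 FPKM in FP and 4.76, 5.51 and 5.37 FPKM in RR. The groups again did not overlap (log2 change -0.63 ± 0.29, limma adjusted p = 0.510). Foxp4, the most abundant of the subfamily, was at 10.5, 15.4 and 15.9 FPKM in FP and 11.9, 22.7 and 29.9 FPKM in RR, with groups that overlap through RR 11 (-0.52 ± 0.36, adjusted p = 0.716). Foxp3, the factor of regulatory T cells, was under the filter at 0.0945 to 0.672 FPKM, and its exons overlap those of Ccdc22 and Ppp1r3f on the opposite strand. Markers of T and B cells summed to 2.89 to 4.33 FPKM in FP and 3.47 to 7.65 FPKM in RR over 7 genes.

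Of 12 corepressor genes that Foxp proteins recruit, among them subunits of the NuRD complex, all were tested and 0 passed, with a median log2 change of 0.09. An unadjusted p under 0.05 was reached by 2 of the 12, beside 10.3% of all tested genes. Gatad2a was at 22.5, 25.1 and 28.5 FPKM in FP and 12.3, 8.36 and 19.3 FPKM in RR (log2 change 0.95 ± 0.32, limma adjusted p = 0.328). Rbbp7, a histone-binding subunit, was at 52.3, 48.01 and 48.4 FPKM in FP and 34.9, 22.7 and 38.8 FPKM in RR (0.64 ± 0.28, adjusted p = 0.478).

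Of the 2 Foxc members, Foxc1 alone had groups that did not overlap, and neither passed. Foxc1, a factor of the mesenchyme of skull and eye that works with Gli2 in mouse cartilage, was at 6.76, 15.8 and 15.2 FPKM in FP libraries 11, 14 and 16, against 15.9, 21.3 and 28.8 FPKM in RR. The groups did not overlap, but only by the small step between FP 14 and RR 11. The means were 12.6 ± 5.07 FPKM in FP and 21.98 ± 6.45 FPKM in RR (SD, n = 3 each), a log2 change of -0.80 ± 0.37 (SE, limma adjusted p = 0.527). Foxc2, which also acts in vessels and lymphatics, was at 9.599, 16.2 and 12.2 FPKM in FP and 7.51, 15.7 and 23.3 FPKM in RR, with no order between the groups (-0.17 ± 0.40, adjusted p = 0.944). Endothelial markers were low in both groups, with 10 genes summing to 11.4 to 23.4 FPKM in FP and 9.96 to 30.9 FPKM in RR.

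The Foxc genes sit in small clusters with other members on mm10. On chromosome 13, Foxq1, Foxf2 and Foxc1 lie in a row, with gaps of 64.8 kb and 175.2 kb between them, and their log2 changes were -0.27 ± 0.41, -0.26 ± 0.31 and -0.80 ± 0.37. On chromosome 8, Foxf1, Foxc2 and Foxl1 lie in a row with gaps of 28.0 kb and 9.0 kb, at log2 changes of -0.03 ± 0.28, -0.17 ± 0.40 and -0.66 ± 0.50. All 6 estimates were below 0, as were 20 of the 30 tested members and 48.4% of all tested genes. None of the 6 passed (limma adjusted p of 0.527 or more). The estimates of Foxc2, Foxf1 and Foxf2 turned positive in some fits without 1 library.

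Within the clusters, Foxf2 was higher than Foxl1 and Foxq1 in every library, and Foxf1 in every library except RR 16, where Foxl1 was higher. Foxf2, a hedgehog-responsive factor of palate and gut mesenchyme, was at 10.02, 12.3 and 10.1 FPKM in FP and 10.05, 11.1 and 19.8 FPKM in RR. Foxf1, its counterpart in lung and gut, was at 6.53, 6.39 and 4.07 FPKM in FP and 6.78, 5.76 and 4.67 FPKM in RR. Foxl1, of gut mesenchyme, was at 0.502, 3.82 and 1.34 FPKM in FP and 1.53, 3.48 and 4.91 FPKM in RR, and Foxq1, known from hair, at 0.62, 2.29 and 1.42 FPKM in FP and 1.08, 2.87 and 1.81 FPKM in RR. For all 4 the groups overlap.

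Of 16 hedgehog pathway genes, some of which act with Foxc1 or upstream of Foxf genes, 15 were tested, 1 was higher and 3 were lower in FP (0.554% and 0.412% of all tested genes were), with a median log2 change of 0.05. Ihh was at 45.5, 71.9 and 84.4 FPKM in FP and 1.09, 1.43 and 3.93 FPKM in RR (4.498 ± 0.39, limma adjusted p = 0.00237). Gli2, the activator that Foxc1 partners in mouse cartilage, was at 5.49, 7.32 and 6.95 FPKM in FP and 32.02, 30.3 and 43.3 FPKM in RR (-2.24 ± 0.26, adjusted p = 0.00797). Pthlh, the parathyroid hormone-related protein, and Boc, a co-receptor, were the other called genes (log2 changes of -3.02 ± 0.30 and -2.18 ± 0.29, adjusted p = 0.00418 and 0.0143). Dropping FP 16 put Gli2 at an adjusted p of 0.0512, and dropping FP 16, RR 14 or RR 16 put Boc at up to 0.0929.

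Foxd1, a factor of kidney stroma and cranial mesenchyme, had the lowest log2 change among the 30 members. It was at 5.92, 6.28 and 8.01 FPKM in FP libraries 11, 14 and 16, against 9.003, 19.8 and 15.1 FPKM in RR. FP lay below RR in all libraries, with RR 11 close to FP 16. The means were 6.74 ± 1.12 FPKM in FP and 14.6 ± 5.43 FPKM in RR (SD, n = 3 each), a log2 change of -0.96 ± 0.32 (SE) that did not pass (limma adjusted p = 0.317). Fibroblast and perichondrium markers (12 genes, led by Col1a1) summed to 1041, 883 and 333 FPKM in FP libraries 11, 14 and 16. In RR libraries 11, 14 and 16 the sums were 2051, 598 and 517 FPKM. Of the 12 markers, 1 was called lower in FP, where 0.412% of all tested genes were. The part of these markers in the Foxd1 and Foxc1 values was not tested. Foxd2 was at 1.34, 1.71 and 1.25 FPKM in FP and 0.145, 1.99 and 2.996 FPKM in RR (0.02 ± 0.50, adjusted p = 0.999). Foxd3, a neural crest factor, reached 0.737 FPKM in RR 14 and was listed at 0 elsewhere.

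Foxm1, the activator of mitotic genes, was at 9.58, 11.3 and 16.4 FPKM in FP libraries 11, 14 and 16, against 5.897, 5.51 and 7.94 FPKM in RR. All FP libraries were above all RR libraries, and library 16 was the highest of both groups. The means were 12.4 ± 3.55 FPKM in FP and 6.45 ± 1.31 FPKM in RR (SD, n = 3 each), a 1.93-fold ratio, with a log2 change of 0.83 ± 0.29 (SE, limma adjusted p = 0.334). Exons of Foxm1 overlap those of Tex52 (144 bp) and Gm44596 (97 bp) on the same strand, so its value is uncertain by those stretches.

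Of 25 Foxm1 targets and partners, all were tested and 0 passed. By estimate 24 of the 25 were higher in FP, where 51.6% of all tested genes were, with a median log2 change of 0.70. An unadjusted p under 0.05 was reached by 9, beside 10.3% of all tested genes. In 11 of the 25 all FP libraries were above all RR libraries, and in 0 below, where these shares are 8.74% and 7.28% among all tested genes. Cenpa, the histone variant of centromeres, was at 14.5, 9.23 and 18.6 FPKM in FP and 3.32, 4.48 and 3.26 FPKM in RR (1.65 ± 0.31, limma adjusted p = 0.0534). Ccnb2, a cyclin of mitosis, was at 13.9, 11.3 and 9.51 FPKM in FP and 6.02, 3.19 and 3.996 FPKM in RR (1.24 ± 0.29, adjusted p = 0.132). Columnar chondrocyte markers (8 genes) summed to 6601 to 7757 FPKM in FP and 2346 to 4226 FPKM in RR, and their part in these values was not tested.

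**Figure D5:**
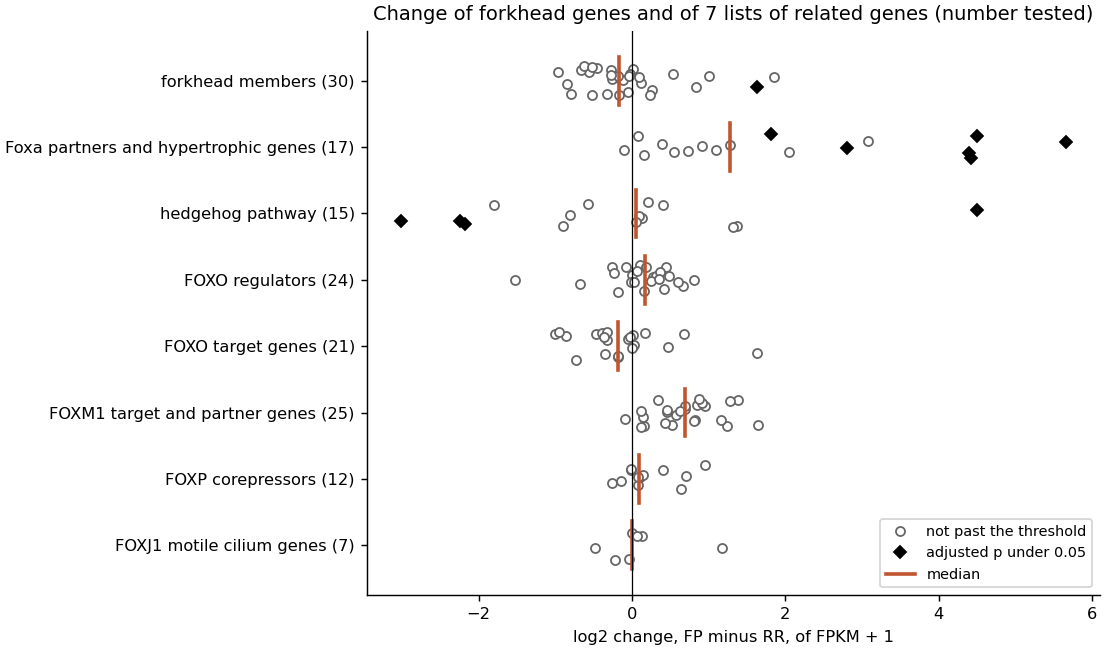
Log2 change, FP minus RR, of the 30 tested forkhead genes and of the tested genes of 7 related lists, with 1 point per gene, a vertical bar at each list's median and diamonds for an adjusted p under 0.05. Points are shifted up or down at random to separate them. The medians are 1.28 for the Foxa list and 0.70 for the Foxm1 list and between -0.18 and 0.17 for the other lists; points of 1 list share libraries and are not independent.

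No Foxk, Foxn or Foxj member passed the test. Foxk1, a repressor that acts in autophagy and glycolysis, was at 8.85, 10.7 and 14.2 FPKM in FP and 5.57, 7.73 and 9.08 FPKM in RR, with overlap only between FP 11 and RR 16 (log2 change 0.53 ± 0.29, limma adjusted p = 0.620). Foxk2 was at 10.1, 7.302 and 8.88 FPKM in FP and 8.13, 5.08 and 8.47 FPKM in RR (0.26 ± 0.28, adjusted p = 0.835). Foxn3, a transcriptional repressor linked to cell cycle checkpoints, was at 13.3, 15.6 and 18.2 FPKM in FP and 12.2, 11.7 and 15.7 FPKM in RR (0.23 ± 0.26). Its groups overlap through RR 16. Foxn2 was at 2.81 to 3.97 FPKM in FP and 3.02 to 3.28 FPKM in RR (0.12 ± 0.26).

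Foxj3 was at 11.6, 5.72 and 6.65 FPKM in FP and 12.1, 9.04 and 8.77 FPKM in RR (log2 change -0.33 ± 0.31), and Foxj2 at 4.94, 6.38 and 4.67 FPKM in FP and 5.03, 7.87 and 7.13 FPKM in RR (-0.27 ± 0.27). Foxj1, the master regulator of motile cilia, was low, at 0.194, 1.349 and 1.13 FPKM in FP and 1.33, 1.57 and 1.99 FPKM in RR (-0.53 ± 0.41, limma adjusted p = 0.758). Of 16 motile cilium genes 14 were found by symbol, 7 reached the filter and 0 passed, with a median log2 change of 0.00. Rsph1, of the radial spokes, was at 3.36, 0.953 and 2.09 FPKM in FP and 0.7296, 0 and 0.327 FPKM in RR (1.17 ± 0.47, adjusted p = 0.427), and Ccdc39 stood at -0.48 ± 0.39 (adjusted p = 0.764).

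The remaining tested members were near the filter, and their groups overlap. Foxh1, the Smad partner in Nodal signalling, was at 0, 3.93 and 0.288 FPKM in FP and 1.81, 3.67 and 0.2704 FPKM in RR, and Foxl2, the ovarian factor, at 0.398, 2.17 and 0.723 FPKM in FP and 0, 4.37 and 0.815 FPKM in RR. Both were highest in library 14 of each group. Foxe1, of thyroid and palate, was at 0, 2.004 and 0.733 FPKM in FP and 0.384, 0.584 and 2.41 FPKM in RR, Foxi2 at 0.2895, 0.383 and 1.403 FPKM in FP and 0.734, 3.13 and 0.922 FPKM in RR, and Foxr1 at 0.315, 1.56 and 1.37 FPKM in FP and 1.44, 2.55 and 0 FPKM in RR. Their log2 changes ran from -0.56 to -0.04. Exons of Foxl2 overlap its antisense partner Foxl2os by 12 bp. On the opposite strand, exons of A530084C06Rik overlap those of Foxq1 over 3200 bp, and exons of antisense genes overlap those of Foxo1 (Gm20402, 589 bp), Foxj2 (Gm26826, 158 bp) and Foxe1 (Gm12446, 102 bp). The values of these 5 members are uncertain to that extent, since no source used here says whether counting used strand.

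The 14 members under the filter had means of 0.123 to 0.948 FPKM, and 10 of them were listed at 0 in at least 1 library, which in such files can be a failed estimate. Highest values were 1.91 FPKM for Foxa1, 1.70 for Foxi1 (inner ear and kidney), 1.53 for Foxb1 and 1.68 for Foxb2 (brain), 1.15 for Foxn1 (thymus and skin epithelium), 1.07 for Foxr2, 0.672 for Foxp3, 0.605 for Foxn4, 0.996 for Foxd4, 0.831 for Foxs1, 0.667 for Foxi3 and 0.737 for Foxd3. Foxe3, the lens factor, reached 3.53 FPKM in FP 16, about 8.21 fragments, and was listed at 0 in the other 5 libraries. Foxi1 had all FP libraries above RR, like Foxp3, and Foxb1 and Foxn1 all FP libraries below. Among all tested genes 16% had groups that did not overlap, and this share was not worked out for genes under the filter. The orders rest on few fragments. Foxi1 corresponded to about 6.93, 7.97 and 4.93 in FP and 3.95, 1.98 and 4.93 in RR. For Foxb1 these were 3.88, 0 and 0.96 against 9.67, 7.74 and 5.79, and for Foxn1 0.95, 0 and 4.72 against 9.47, 3.79 and 9.45. Exons of Foxb1 also overlap those of the antisense gene B230323A14Rik over 418 bp on the opposite strand. The 14 members did not enter the reported fit. They were tested in the fit without a filter, where 0 passed. Epithelial markers were low, with 6 genes summing to 2.48 to 28.6 FPKM in FP and 2.47 to 33.9 FPKM in RR.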

How the data were processed

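Laser-cut layers gave RNA for SMARTer stranded libraries made for very small inputs, per the labels' protocols. Each deposited file lists FPKM by gene symbol for a single library, per the file headers. The submitters' processing notes name Cuffdiff 2.2.1, TopHat2 2.1.1, SAMtools 0.1.18, Bowtie2 2.2.8 and the build mm10; order, annotation, library scaling and strand setting were not found there. The labels do not say whether libraries are separate animals. If they are not, the p-values describe technical spread alone.

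limma 3.58.1 (R 4.3.3, eBayes with an intensity trend) was fitted to log2(FPKM + 1), FP minus RR, with 3 libraries each and no covariate, over the 14789 genes averaging 1 FPKM or more, with two-sided p-values adjusted by Benjamini-Hochberg over them all. Folds are ratios of mean FPKM, and log2 changes on this scale understate those of low genes. Fragments were estimated from steps in FPKM over symbols with 1 GENCODE M21 basic transcript of 1500 to 3000 bp, where 70.6% to 74.1% of low values were whole within 0.1 fragments, against 20% by chance; their number limits precision and covers counting error only. All 44 members were found in GENCODE M21 (mm10). Promoter sequences are RefSeq's, and 28 members matched by symbol. In 10 simulated sets of 14789 genes, changes were given only to genes averaging over 5 FPKM. The fit called 4.6% of those with a log2 change of 1, 60% at 2 and 95.6% at 3. These rates do not cover the 12 tested members that averaged under 5 FPKM. Simulated libraries were independent and each gene had exactly the smoothed spread of its level, so the rates may not hold for real genes. Members are named, except 1 that is not reported here; from each related list, called genes (up to 6) or else the 2 with the smallest p are named, and further genes were picked after their values were seen. Members and lists were chosen with earlier results of these data known. Alternatives covered pseudocount, filter, scaling, trend, weights, replicate block and libraries left out.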

Additional observations from a re-analysis of the deposited data

How the results depend on the processing

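The log2 changes of Foxa2 and Foxa3 kept their direction in all 18 alternatives, but their calls did not hold. Both passed with a pseudocount of 0.1 or 0.5, with library weights and with the replicate block, so 2 forkhead members were called in each of these, against 1 in the reported fit. Foxa2 was the called member when genes averaging under 5 FPKM were dropped, and without FP 11. It was Foxa3 in the fit rescaled without the top 1% of genes. The count was 0 without a filter, without an intensity trend, with quantile normalization and without both libraries numbered 11, 14 or 16, and 0 to 1 with 1 library left out.

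Over all genes, 143 were called (82 higher and 61 lower in FP). The counts were 83 (46 and 37) without an intensity trend, 42 (26 and 16), 8 (6 and 2) and 20 (16 and 4) without both libraries numbered 11, 14 and 16, and 42 to 85 (27 to 56 higher and 15 to 35 lower) with 1 library left out. Rescaling without the top 1% of genes moved the median of all genes by -0.10 on the log2 scale and called 77 higher and 79 lower. With the replicate block 271 genes were called (160 higher and 111 lower). Deviations from the group means correlated at 0.319, 0.185 and 0.0890 between libraries numbered 11, 14 and 16. Between unlike numbers they correlated at -0.224 to 0.0461, so each library correlated best with its own number. The titles of FP and RR share these numbers, but no label says that a number marks the same animal. The reported fit was therefore unpaired. With the block, the limma adjusted p was 0.0293 for Foxa2 and 0.0226 for Foxa3.

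Among the 30 members, 11 changed sign in some alternative, and none of these passed in any. Pseudocount 0.1 gave log2 changes of 0.40 for Foxl2 and 0.44 for Foxr1. Foxr1 was also at 0.031 with pseudocount 0.5, 0.077 with library weights and 0.11 with quantile normalization, and Foxd2 at -0.042 after rescaling. Without both libraries numbered 11, Foxd2 was at -0.49, Foxh1 at 0.050, Foxo1 at 0.085 and Foxr1 at 0.39. Without both numbered 14, Foxo6 was at -0.23. Without both numbered 16, Foxc2 was at 0.18, Foxf1 at 0.040, Foxf2 at 0.065 and Foxo1 at 0.00038. With 1 library left out, the ranges were -0.59 to 0.17 for Foxc2, -0.51 to 0.39 for Foxd2, -0.42 to 0.22 for Foxe1, -0.15 to 0.16 for Foxf1, -0.43 to 0.022 for Foxf2, -0.66 to 0.13 for Foxl2, -0.17 to 0.077 for Foxo1, -0.44 to 0.18 for Foxo3, -0.25 to 0.37 for Foxo6 and -0.56 to 0.26 for Foxr1. None of the 19 genes named by rule from the related lists changed sign. The genes picked after their values were seen, Mmp13 and Mef2c among them, were not part of this check. The cause of these changes was not tested. On simulated data, where only genes averaging over 5 FPKM were given a change, 4.6% of those with a log2 change of 1 were called. That rate assumes independent libraries and the same spread for all genes of a level.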
